A study of Mus musculus with 4 samples.

Results

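Plasmacytoid dendritic cells (pDCs) do not all carry the same surface proteins, and 9 genes whose products are used to divide mouse pDCs, or to place cells between pDCs and conventional dendritic cells, are described here: Ly6a, Ly6c1, Ly6c2, Cx3cr1, Cd8a, Cd4, Lag3, Cd5 and Axl. They were taken by symbol from a table of raw read counts with 27179 genes, and all 9 were present and passed the filter on low counts that left 11706 genes to be tested. The cells were C57BL/6 mouse pDCs that had been cultured from marrow for 8 days in Flt3 ligand, the cytokine that drives dendritic cell growth. Before sorting they received imiquimod, a TLR7 ligand, at 1 µg/ml for 24 h. All 4 libraries came from stimulated cells sorted with SiglecH and CD11b. Of these, 2 were from BFP-positive cells and 2 from BFP-negative cells, where BFP is a fluorescent reporter of the chemokine gene Cxcl10. One label of the BFP-negative samples contradicts the design text on whether they carry CXCL10, so groups were set by BFP alone. The direction of the CD11b gate was not clear from the sources used here, and no unstimulated library was analysed here.

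Library totals were 11868254 to 12570117 counts. The reporter gene Cxcl10 averaged 12.7 ± 0.0787 CPM (read counts scaled to library size, with TMM factors) in BFP-positive and 0.870 ± 0.889 CPM in BFP-negative cells (SD, n = 2 each) and served only as a check of the labels. The defining pDC markers Siglech, Bst2, Tcf4, Irf8, Spib, Runx2 and Pacsin1 summed to 5896 and 6080 CPM in BFP-positive libraries and to 5758 and 6626 CPM in BFP-negative libraries. The samples are bulk, so a different number of cells that express a gene and a different amount of RNA per cell cannot be told apart. The labels do not say whether the libraries of a group came from separate cultures, so p-values rest on the spread between these libraries, which may be technical. The test estimates that spread for each gene partly from the other genes tested.

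The genes fall into several families. Ly6a encodes Sca-1, and Ly6c1 and Ly6c2 encode the nearly identical proteins detected as Ly6C. These are small proteins held in the membrane by a lipid anchor, and they are known to be raised by interferon. Cx3cr1 is the receptor of the chemokine fractalkine, and Axl is a receptor tyrosine kinase that binds Gas6 and dampens innate responses. CD8α and CD4 are known as T cell coreceptors for MHC class I and class II but are also found on mouse dendritic cells. Lag3 is a CD4-related receptor for class II, and Cd5 is a scavenger-type receptor that restrains antigen receptor signals in T cells and some B cells.

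The Ly6c pair is shown first because its likeness bears on how its counts can be read. The coding sequences of Ly6c1 and Ly6c2, 393 bases each in the longest protein-coding transcript of the GENCODE M21 annotation (GRCm38), were identical at 97.7% of positions. The first 120 coding bases are printed 5′ to 3′, with capitals where the genes differ.
Ly6c1: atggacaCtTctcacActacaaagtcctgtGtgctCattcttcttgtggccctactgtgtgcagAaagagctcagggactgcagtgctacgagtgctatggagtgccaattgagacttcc
Ly6c2: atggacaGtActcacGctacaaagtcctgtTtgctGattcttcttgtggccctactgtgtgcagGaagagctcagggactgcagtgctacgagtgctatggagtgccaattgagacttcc

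Only 6 of these 120 bases differ, and 31.7% of the 50-base windows of the Ly6c1 transcript occurred unchanged in that of Ly6c2. Reads from such windows can be split or lost between the genes, so their separate counts are uncertain. Ly6a was less alike, with 81.8% of coding positions shared with Ly6c1 and 81.6% with Ly6c2.

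The sequences upstream of the Ly6c genes were less alike than their coding parts. They are printed 5′ to 3′ on the minus strand of GRCm38.p6 from RefSeq, at chr15:75048921-75049087 for Ly6c1 and chr15:75112067-75112221 for Ly6c2, outside the annotated gene spans. Capitals mark the ETS-like motif GAGGAA on either strand, the kind of motif bound by SpiB, a pDC transcription factor.
Ly6c1: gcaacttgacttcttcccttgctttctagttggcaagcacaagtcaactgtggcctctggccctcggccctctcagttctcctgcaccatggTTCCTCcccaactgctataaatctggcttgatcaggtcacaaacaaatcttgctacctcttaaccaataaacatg
Ly6c2: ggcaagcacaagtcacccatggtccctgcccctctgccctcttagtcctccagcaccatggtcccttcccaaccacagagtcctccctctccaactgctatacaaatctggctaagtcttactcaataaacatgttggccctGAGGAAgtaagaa

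Over the 136 positions that could be aligned, 72.8% were identical. RefSeq windows of 250 bases at gene starts were available for 6 of the 9 genes, namely Ly6c1, Ly6c2, Cx3cr1, Cd8a, Cd5 and Axl. Not all of each window is upstream: for Ly6c1 and Ly6c2, 167 and 155 of the bases lie outside the annotated gene spans. The ETS-like motif occurred once in each of the 6 windows except that of Cx3cr1, against 23.1% of 27025 gene windows of the same length with at least 1 match. Where a gene had several listed starts, the outermost was read for members and the first listed for the 27025 genes. An ISRE-like motif (a pair of GAAA blocks separated by any 2 bases) and the GAS-like motif TTCNNNGAA are linked to interferon signalling. Searched on both strands, they occurred in none of the 6 windows, against 3.04% and 7.18% of all windows. These matches describe letters in the windows and do not show binding.

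Ly6c2 (Entrez gene 100041546, chromosome 15, 75108161 to 75112066) was the member that rose. It had 777 and 897 CPM in BFP-positive libraries and 299 and 379 CPM in BFP-negative libraries, so the groups were far apart. The rise was 2.47-fold, a log2 fold change of 1.30 with SE 0.14 (Benjamini-Hochberg adjusted p = 0.000375 over all genes tested, from edgeR's quasi-likelihood test). The 95% interval of the log2 fold change was 0.98 to 1.62. Over all genes tested, 7.6% were called higher and 3.51% lower. These shares are the background for each count of called genes given below, in the gene lists and around Ly6a.

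Ly6c1 (Entrez gene 17067, chromosome 15, 75044018 to 75048920) was much scarcer, at 34.5 and 32.0 CPM in BFP-positive libraries and 17.1 and 30.2 CPM in BFP-negative libraries. The values did not overlap, but BFP-negative replicate 2 lay close to the BFP-positive libraries and the gene did not pass (log2 fold change 0.49, SE 0.29, adjusted p = 0.340 in edgeR's test). Leaving out BFP-negative replicate 2 gave Ly6c1 a log2 fold change of 0.98, and leaving out BFP-negative replicate 1 gave 0.14. As a share of the counts of both Ly6c genes, Ly6c1 took 4.25% (95% exact binomial interval 3.86% to 4.68%) and 3.45% (3.12% to 3.80%) in BFP-positive libraries. In BFP-negative libraries it took 5.41% (4.73% to 6.17%) and 7.39% (6.69% to 8.13%). Ly6c1 was thus the minor partner in every library, and its share was lower in both BFP-positive libraries. Because these intervals cover counting error only, they say nothing of library-to-library spread. When the counts of both genes were summed into 1 feature, the log2 fold change was 1.26 with SE 0.15 (adjusted p = 0.000468, edgeR's quasi-likelihood test).

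**Figure D1:**
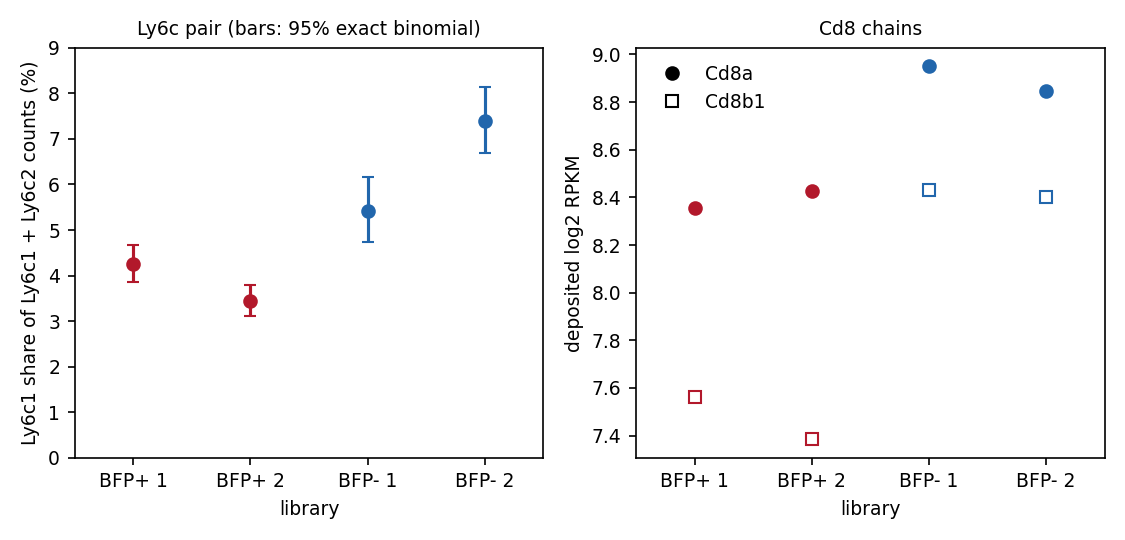
Left, the share of Ly6c1 in the summed counts of Ly6c1 and Ly6c2 (percent) in each library, with 95% exact binomial intervals as bars; the BFP-positive libraries are at 4.25% and 3.45% and the BFP-negative libraries at 5.41% and 7.39%. Right, deposited log2 RPKM of Cd8a (filled circles) and Cd8b1 (open squares) in each library; both chains are lower in the BFP-positive libraries.

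Ly6a (Entrez gene 110454, chromosome 15, 74994877 to 74998031) was among the most abundant transcripts of these cells in both groups. It had 9269 and 10436 CPM in BFP-positive libraries and 8226 and 9187 CPM in BFP-negative libraries. The BFP-positive values were the higher ones, but by less than the spread allowed the test to call (log2 fold change 0.18, SE 0.10, adjusted p = 0.322 in edgeR's quasi-likelihood test). The 95% interval ran from -0.05 to 0.40, so a rise of 2-fold lies outside it.

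Other genes of the Ly6 family moved both ways. Of 27 listed relatives, 24 were in the table and 13 of those had no count in any library. Among 8 tested, 1 rose, 2 fell and 5 did not pass, with a median log2 fold change of -0.52 beside -0.02 over all genes tested. The counts moved to 3 higher without BFP-negative replicate 2 and to 4 lower without BFP-negative replicate 1, and the replicate block gave 2 higher and 4 lower; library totals and DESeq2 also gave 4 lower. Ly6i, which lies next to Ly6a, rose to 169 ± 10.8 CPM in BFP-positive cells against 63.8 ± 17.1 CPM in BFP-negative cells (log2 fold change 1.40, SE 0.19, adjusted p = 0.00134 by edgeR). Ly6d, a marker of lymphoid progenitors and pDCs, fell to 13092 ± 736 CPM against 19118 ± 2586 CPM (log2 fold change -0.55, SE 0.11). That call was lost without BFP-positive replicate 2, with adjusted p = 0.0567. Plaur, the urokinase receptor, fell to 129 ± 1.85 CPM in BFP-positive cells against 253 ± 3.41 CPM in BFP-negative cells. Ly6e, an interferon-raised relative known to affect virus entry, was at 4615 ± 647 and 3815 ± 596 CPM in BFP-positive and BFP-negative cells and did not pass (log2 fold change 0.27, SE 0.13); it passed without BFP-negative replicate 2 (adjusted p = 0.0213) and with the replicate number as a block (0.00704 in edgeR and 0.000908 in limma-voom).

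The neighbourhood of Ly6a gave a map of these changes. Ly6c1 lies 46.0 kb from Ly6a, and Ly6c2 a further 59.2 kb along. Of 29 genes of the count table within 500 kb of Ly6a, 15 were tested; 2 were higher, 2 were lower and 11 did not pass, and the window was chosen after the values were seen. The higher genes were Ly6i and Ly6c2, while Ly6a and Ly6c1 between them did not pass. The lower genes were Ly6d and Jrk, both on the far side of Ly6e from Ly6a. The call of Jrk was lost without BFP-positive replicate 2 or BFP-negative replicate 1, at adjusted p = 0.0827 and 0.0554.

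**Figure D2:**
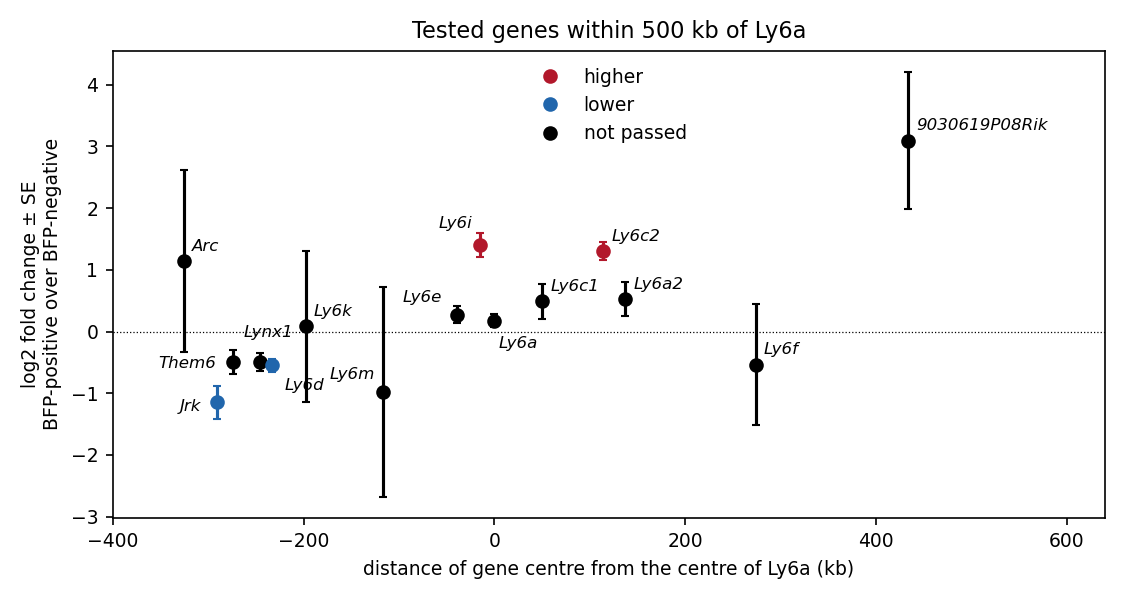
Log2 fold change of BFP-positive over BFP-negative cells (vertical axis, points with SE bars) for the 15 tested genes within 500 kb of Ly6a, against the distance of each gene's centre from that of Ly6a in kb. Ly6i and Ly6c2 are the genes called higher (1.40 and 1.30), and Jrk and Ly6d those called lower (-1.15 and -0.55).

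Cd5 (Entrez gene 12507, chromosome 19, 10718107 to 10739026) showed the larger of the members' falls. It had 61.0 and 57.2 CPM in BFP-positive libraries and 110.3 and 138 CPM in BFP-negative libraries, with no overlap. The log2 fold change was -1.07 with SE 0.17 and a 95% interval of -1.45 to -0.69, a 2.10-fold lower level (adjusted p = 0.00331, edgeR's quasi-likelihood test). It passed under each of the 13 alternative settings with a test, at log2 fold changes from -1.22 to -0.88. Cd6, the closest relative of Cd5, fell as well, to 3.92 ± 2.02 CPM against 15.5 ± 0.527 CPM (log2 fold change -1.98, SE 0.44, adjusted p = 0.0176 by edgeR). Without BFP-positive replicate 1 the call of Cd6 was lost, with adjusted p = 0.0562. The phosphatase gene Ptpn6, whose product docks on CD5, was higher, at 1454 ± 84.8 CPM in BFP-positive and 1062 ± 86.4 CPM in BFP-negative cells (adjusted p = 0.0285 by edgeR), and the ubiquitin ligase gene Cblb did not pass (log2 fold change 0.30, SE 0.20). The call of Ptpn6 was lost without BFP-positive replicate 1 or 2 or BFP-negative replicate 1, at adjusted p = 0.0724, 0.208 and 0.0789.

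Some B cell markers were also lower beside Cd5. Of 7 listed, 4 were tested, 2 fell and 2 did not pass. Cd79a, which encodes a signalling chain of the B cell receptor, fell to 1.98 ± 0.356 CPM in BFP-positive cells against 14.4 ± 1.09 CPM in BFP-negative cells, whereas Cd79b was at 93.5 ± 4.61 and 93.1 ± 4.34 CPM. Ms4a1, which encodes CD20, was at 1.32 ± 1.17 CPM in BFP-positive and 4.62 ± 0.849 CPM in BFP-negative cells and did not pass. Over the whole list the sums were 94.7 to 99.6 CPM in BFP-positive and 123 CPM in both BFP-negative libraries, and none of its genes was at 0 throughout. Their part in the fall of Cd5 was not tested.

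Cd8a (Entrez gene 12525, chromosome 6, 71373427 to 71379171) fell by a smaller step. It had 1043 and 1107 CPM in BFP-positive libraries and 1495 and 1428 CPM in BFP-negative libraries. The groups did not overlap, and the log2 fold change was -0.44 with SE 0.11 and a 95% interval of -0.68 to -0.21 (adjusted p = 0.0239, edgeR's quasi-likelihood test). The call was lost without BFP-positive replicate 1 or 2 or BFP-negative replicate 1, with adjusted p = 0.198, 0.108 and 0.0521, while the log2 fold change stayed between -0.48 and -0.40 in those fits. Its partner chain Cd8b1 fell to 258 ± 20.7 CPM in BFP-positive cells against 473 ± 1.84 CPM in BFP-negative cells (log2 fold change -0.87, SE 0.12, adjusted p = 0.00145 by edgeR). Per gene length, on the deposited log2 RPKM scale, Cd8a exceeded Cd8b1 by 0.79 and 1.04 in BFP-positive libraries and by 0.52 and 0.44 in BFP-negative libraries. The difference between the chains' falls was not tested.

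Cd4 (Entrez gene 12504, chromosome 6, 124864693 to 124888247) was the scarcest member and did not follow BFP. Its counts were 41 and 96 in BFP-positive libraries and 132 and 59 in BFP-negative libraries, or 3.52 and 7.90 CPM against 10.6 and 4.65 CPM. The groups overlapped, and the 95% interval of the log2 fold change, -1.66 to 0.83, leaves room for a change of over 2-fold downward (log2 fold change -0.42, SE 0.56, adjusted p = 0.717 in edgeR's test). The sign turned without BFP-positive replicate 1 (0.05) or BFP-negative replicate 1 (0.30). The replicates of each group differed by over 2-fold.

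Lag3 (Entrez gene 16768, chromosome 6, 124904359 to 124912434) lies 16.1 kb from Cd4 and had close replicates. It had 21.5 and 22.5 CPM in BFP-positive libraries and 12.5 and 13.6 CPM in BFP-negative libraries. The groups did not overlap, yet the gene did not pass after adjustment (log2 fold change 0.75, SE 0.28, unadjusted p = 0.0227 and adjusted p = 0.123 in edgeR's quasi-likelihood test). Under the 13 alternatives its log2 fold change ran from 0.69 to 0.84, with adjusted p from 0.0892 to 0.337. Of 15 listed ligands and partners of the 9 genes, 11 were tested, 3 rose, 2 fell and 6 did not pass, with a median log2 fold change of -0.07. Only 1 of them was called higher without BFP-positive replicate 2, and only 1 lower without BFP-positive replicate 1. Among partners of Lag3, Lgals3, which encodes the galectin that binds it, rose to 519 ± 20.9 CPM against 132 ± 30.8 CPM (log2 fold change 1.97, SE 0.16). Fgl1, another ligand, had no count in any library. Adam10 and Adam17, the proteases that shed LAG3, were at 12.2 ± 2.32 and 52.3 ± 5.53 CPM in BFP-positive cells and at 13.6 ± 1.96 and 65.3 ± 7.52 CPM in BFP-negative cells, and neither passed.

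Because Cd4, Cd8a, Cd5 and Lag3 are shared with T cells, T cell genes were read beside them. The defining T cell genes Cd3d, Cd3e, Cd3g, Cd247, Trac, Trbc1 and Trbc2 together had 4 and 25 counts in BFP-positive libraries and 14 and 0 counts in BFP-negative libraries. None of these 7 passed the filter, and Cd3g was at 0 throughout. Of the whole list of 13 T cell markers, Cd3g, Zap70, Thy1 and Bcl11b had no count and 2 were tested. The costimulatory receptor gene Cd28, which pDCs also express, fell to 19.2 ± 5.74 CPM in BFP-positive cells against 50.7 ± 0.398 CPM in BFP-negative cells (log2 fold change -1.40, SE 0.25, adjusted p = 0.00563 by edgeR). The other, Lat, did not pass. The kinase gene Lck, which binds the CD4 and CD8α tails in T cells, was at 10.7 ± 0.196 and 19.99 ± 1.62 CPM in BFP-positive and BFP-negative cells and did not pass (log2 fold change -0.90, SE 0.30). Summed over the list, T cell markers gave 30.8 and 21.0 CPM in BFP-positive libraries and 58.9 and 59.1 CPM in BFP-negative libraries, most of it Cd28.

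Cx3cr1 (Entrez gene 13051, chromosome 9, 120048683 to 120068296) overlapped between the groups. It had 72.3 and 109 CPM in BFP-positive libraries and 86.4 and 92.4 CPM in BFP-negative libraries, and both the lowest and the highest value were BFP-positive. The log2 fold change was 0.02 with SE 0.20 and a 95% interval of -0.43 to 0.47 (adjusted p = 0.971, edgeR's quasi-likelihood test); its sign turned with library totals in place of TMM scaling and under other settings. An antisense gene overlaps 1.73% of its annotated exon bases, and the library kit does not mark strand. The gene of its ligand, Cx3cl1, had no count in BFP-negative libraries and 20 and 24 counts in BFP-positive libraries. That is at least 7.73-fold higher when BFP-negative libraries are set at 3 counts each. Its call (adjusted p = 0.0218 in edgeR's test) was lost in each fit that lacked a library, where the adjusted p ran from 0.0879 to 0.143.

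Axl (Entrez gene 26362, chromosome 7, 25756500 to 25788924) was level between the groups. It had 131 and 145 CPM in BFP-positive libraries and 135 and 145 CPM in BFP-negative libraries. The log2 fold change was -0.02 with SE 0.14, and its 95% interval of -0.34 to 0.30 bounds a change in either direction well under 2-fold (adjusted p = 0.960, edgeR's quasi-likelihood test). Its sign turned when single libraries were left out. The related receptors Mertk and Tyro3 and the ligand Gas6 had no count in any library. The other ligand of the family, Pros1, had 7.47 and 17.9 CPM in BFP-positive libraries and 4.82 and 3.39 CPM in BFP-negative libraries and did not pass (adjusted p = 0.0651 by edgeR); it passed in 5 of the 13 alternatives, among them DESeq2 (0.0340) and edgeR without BFP-positive replicate 1 (0.00720) or BFP-negative replicate 1 (0.0403).

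**Figure D3:**
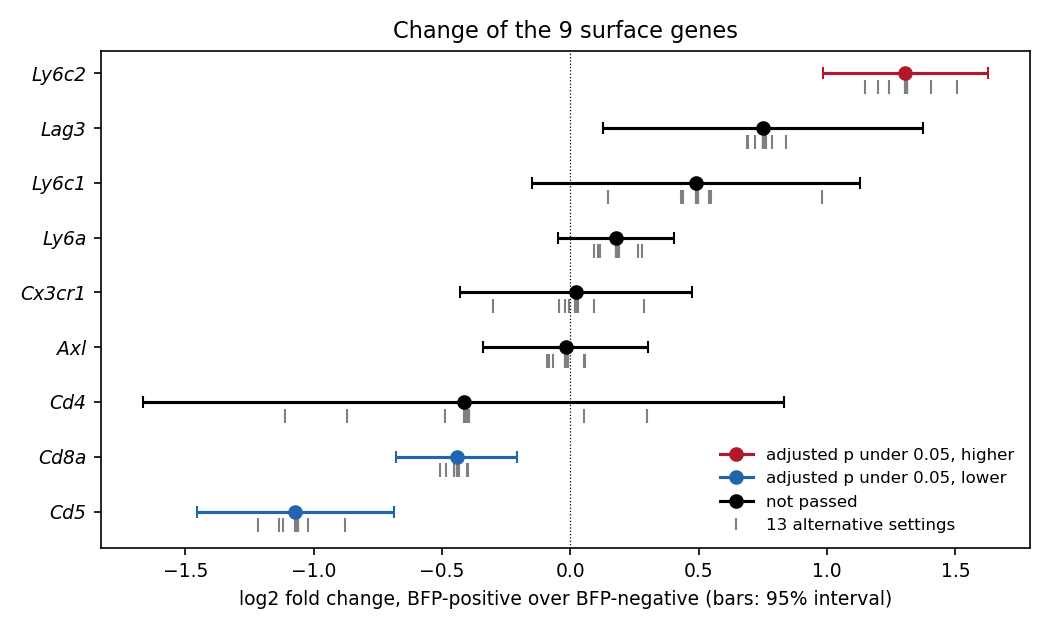
Log2 fold change of BFP-positive over BFP-negative cells for the 9 genes (points) with 95% intervals (bars), and the values under 13 alternative settings as grey ticks. The intervals of Ly6c2, Cd8a and Cd5 belong to the genes that passed at adjusted p under 0.05, and those of Cx3cr1, Axl, Cd4, Ly6a and Ly6c1 cross 0. The interval of Lag3, 0.13 to 1.37, is for that gene alone, and Lag3 did not pass after adjustment.

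Over the 9 genes, 1 rose, 2 fell and 6 did not pass, where 11.1% of all genes tested were called in either direction. The groups did not overlap for 6 of the 9 genes, 4 with BFP-positive libraries higher and 2 lower, against 54.2% of all genes tested. Their median log2 fold change was 0.02, beside -0.02 over all genes tested.

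Levels can be compared between the genes only per gene length, for which the deposited log2 RPKM values were used; RPKM scales reads by gene length and library size. Ly6a was highest at a mean level of 13.45 over the 4 libraries, above 99.97% of the genes tested, and stood 4.08 log2 units above the next gene. Ly6c2 (9.37) and Cd8a (8.64) followed and were not separated over all libraries. In BFP-positive cells the mean level of Ly6c2 was 9.99 and that of Cd8a 8.39, whereas in BFP-negative cells they were 8.75 and 8.90. Cd8a stood 3.28 log2 units above Cd5 (5.37). From Cd5 down through Axl (4.77), Cx3cr1 (4.58), Ly6c1 (4.06) and Lag3 (3.08), each gene's range over the 4 libraries overlapped with the next. Cd4 came last at 0.98, below the range of Lag3.

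**Figure D4:**
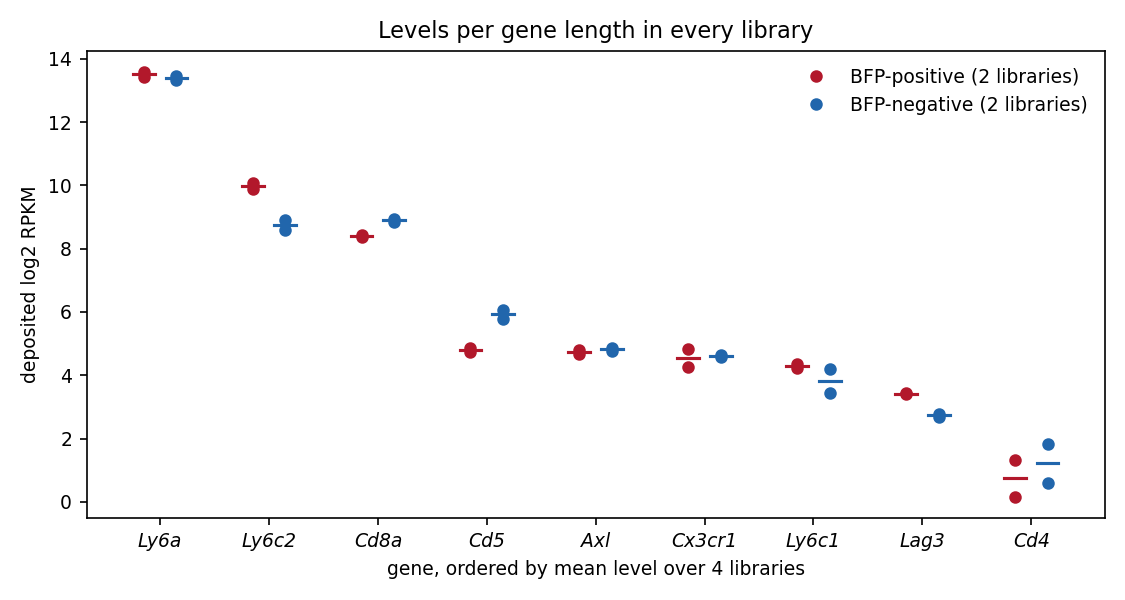
Deposited log2 RPKM of the 9 genes in each library, ordered by mean level; points are libraries (BFP-positive in red on the left of each pair, BFP-negative in blue on the right) and short lines are group means. Ly6a sits near 13.45, and the order of Ly6c2 and Cd8a differs between the groups.

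Genes whose values were most like those of the 3 called members over the 4 libraries were found by the distance between centred log2 CPM profiles among 5781 genes, a measure that with 4 libraries mostly reflects the group difference. For Ly6c2 they were Lrrc25 and Msrb1 (distances 0.0567 and 0.0725 log2 units), for Cd8a Far1 and Yipf5 (0.0189 and 0.0367) and for Cd5 Mcrip2 and Cadm1 (0.107 and 0.114). Far1 and Yipf5 did not pass the test, with adjusted p = 0.139 and 0.0995 by edgeR; Yipf5 passed with the replicate block (0.0480 in edgeR and 0.0408 in limma-voom). The calls of Msrb1 and Cadm1 were lost when some single libraries were left out.

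Other surface genes reported to divide pDCs also differed. Of 10 listed, 9 were tested, 3 rose and 2 fell. Ccr9, the gut-homing receptor of resting pDCs, fell in BFP-positive cells, with means of 509.8 CPM in BFP-positive and 945 CPM in BFP-negative cells (log2 fold change -0.89, SE 0.11). The tetraspanin gene Cd9 rose to 61.8 ± 2.93 CPM against 22.1 ± 5.45 CPM. Cd80, a ligand of CD28, was also among those that rose, at 5.36 ± 1.41 CPM in BFP-positive and 0.355 ± 0.502 CPM in BFP-negative cells, and Cd28, described above, fell. The call of Cd80 (adjusted p = 0.0493 by edgeR) was lost in limma-voom and without BFP-positive replicate 1 or 2 or BFP-negative replicate 1, at 0.0520 to 0.168. Of genes known to mark transitional or AXL-positive dendritic cells in humans, 7 in number besides Axl, Cd5 and Cx3cr1, 5 were tested and 2 rose. Zbtb46, a transcription factor of conventional dendritic cells, rose, with means of 16.8 CPM in BFP-positive and 2.85 CPM in BFP-negative cells (log2 fold change 2.56, SE 0.66). Leaving out BFP-negative replicate 2 gave Zbtb46 a log2 fold change of 4.54, and leaving out the other BFP-negative library gave 1.76. Klf4 was at 2.93 ± 0.864 and 0.158 ± 0.110 CPM in BFP-positive and BFP-negative cells, and its call by edgeR (adjusted p = 0.0331) was lost in limma-voom (adjusted p = 0.0847) and in each fit that lacked a library (0.0608 to 0.293). Siglec1 had no count in any library.

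Markers of monocytes and conventional dendritic cells, which carry Ly6c2, Cx3cr1, Cd8a or Axl in some of their subsets, were read beside these genes. As given above, Ly6c2 rose, Cd8a fell, and Cx3cr1 and Axl did not pass. Of 12 monocyte and macrophage markers, 9 were tested, 5 rose and 2 fell, and Mertk and F13a1 were among those with no count in any library. Their summed level was 619 and 649 CPM in BFP-positive libraries and 343 and 403 CPM in BFP-negative libraries. Ccr2, the receptor that brings Ly6C-high monocytes to tissue, rose to 155 ± 24.5 CPM against 50.8 ± 7.43 CPM, and Lyz2, the lysozyme gene of myeloid cells, rose to 27.8 ± 14.7 CPM against 1.71 ± 0.146 CPM. Csf1r, the receptor gene of macrophage growth, and Cd14, a lipopolysaccharide coreceptor gene, rose as well, to 27.8 ± 7.08 and 97.6 ± 2.47 CPM in BFP-positive cells against 0.121 ± 0.170 and 10.1 ± 0.373 CPM in BFP-negative cells. Adgre1, which encodes F4/80, and Apoe fell, to 8.45 ± 2.48 and 1.31 ± 0.217 CPM in BFP-positive cells against 30.2 ± 7.54 and 13.9 ± 4.49 CPM in BFP-negative cells. Of 14 conventional dendritic cell markers, all were tested, 6 rose and 1 fell, with summed levels of 1041 and 1105 CPM in BFP-positive libraries and 773 and 771 CPM in BFP-negative libraries. None of these was at 0 throughout. Clec4a4, which encodes an inhibitory lectin of CD8-negative dendritic cells, rose to 24.3 ± 4.33 CPM against 1.11 ± 0.210 CPM. Cadm1 was the one that fell, to 13.8 ± 1.06 CPM in BFP-positive cells against 28.9 ± 2.49 CPM in BFP-negative cells. Its call, as said above, was lost when some single libraries were left out. Id2, an abundant gene of the list, did not pass, at 486 ± 32.4 and 453 ± 48.5 CPM in BFP-positive and BFP-negative cells. The defining markers Xcr1, Clec9a, Zbtb46 and Clec10a summed to 62.3 and 60.0 CPM in BFP-positive libraries and to 20.3 and 34.7 CPM in BFP-negative libraries. Of these only Zbtb46 passed, while Xcr1, Clec9a and Clec10a did not (adjusted p = 0.0695, 0.249 and 0.191 by edgeR). Clec9a had 40.0 and 26.6 CPM in BFP-positive libraries and 18.0 and 26.4 CPM in BFP-negative libraries. The part of such cells in the rise of Ly6c2 and the fall of Cd8a was not tested.

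Of 7 NK cell markers, 3 were tested and 1 rose: Klrd1, which encodes CD94, was at 100.5 ± 11.7 CPM in BFP-positive and 18.3 ± 0.0395 CPM in BFP-negative cells. Eomes and Prf1 had no count in any library, and the list summed to 99.0 and 118 CPM in BFP-positive libraries and to 28.9 and 21.8 CPM in BFP-negative libraries. The defining NK genes Ncr1, Klrb1c and Eomes together had 3.09 and 7.33 CPM in BFP-positive libraries and 10.7 and 3.15 CPM in BFP-negative libraries, with overlap. The list of pDC identity genes had 14 members, of which 4 rose, 2 fell and 8 did not pass; Ly6d and Ccr9 were those that fell. Its summed level was 20607 and 19679 CPM in BFP-positive libraries and 24369 and 28951 CPM in BFP-negative libraries. Without Ly6d, which alone gave 13612 and 12571 CPM in BFP-positive and 17289 and 20947 CPM in BFP-negative libraries, the sums were 6995 and 7107 CPM in BFP-positive and 7080 and 8005 CPM in BFP-negative libraries. With any library left out, 1 or 2 genes of the list were called higher. Runx2 and Bcl11a, transcription factors of pDCs, rose to 63.8 ± 13.7 and 131 ± 16.9 CPM in BFP-positive cells against 35.4 ± 1.37 and 80.7 ± 7.82 CPM in BFP-negative cells. Both calls were lost when a single library was left out, with adjusted p = 0.220 for Runx2 without BFP-positive replicate 2 and 0.156 for Bcl11a without BFP-positive replicate 1. Siglech, a gene of the sort, had means of 803 CPM in BFP-positive and 613 CPM in BFP-negative cells, and its edgeR call (adjusted p = 0.0485) was lost in each fit that lacked a library, at 0.0716 to 0.287. The CD11b gene Itgam did not pass (adjusted p = 0.0546 by edgeR), with 10.1 ± 0.712 CPM in BFP-positive and 2.93 ± 1.65 CPM in BFP-negative cells. It passed in 6 of the 13 alternatives, at adjusted p = 0.0293 in DESeq2, 0.0419 in limma-voom, 0.0387 with no filter, 0.0316 and 0.0401 with the replicate block in edgeR and limma-voom, and 0.00924 without BFP-negative replicate 2.

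**Figure D5:**
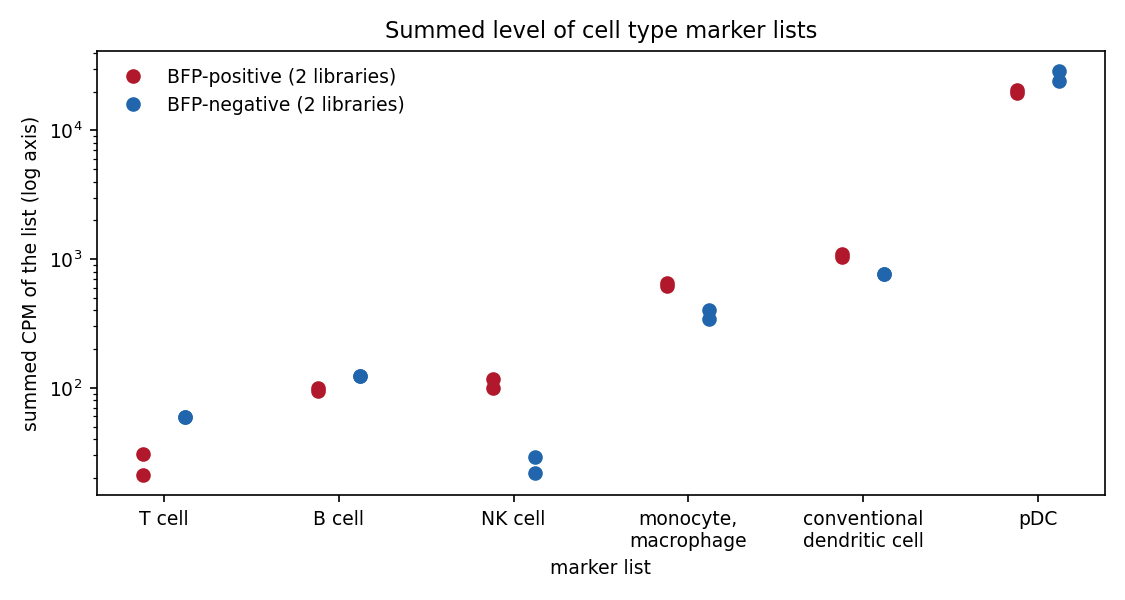
Summed CPM (log axis) of 6 marker lists in each library, BFP-positive in red on the left of each pair and BFP-negative in blue on the right. The NK cell, monocyte and conventional dendritic cell lists are higher in the BFP-positive libraries, the NK cell list mostly through Klrd1. The T cell, B cell and pDC lists are lower there, the T cell list mostly through Cd28 and the pDC list mostly through Ly6d.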

How the data were processed

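The authors deposited raw read counts per gene, without normalization, for all 4 libraries, and log2 RPKM values per library, scaled by gene length and library size. Tools in the submitters' processing notes are featureCounts, Subread and limma, and the builds named there are mm10 and GRCm38. Their versions, the strand setting and the treatment of multi-mapped reads are not given in the sources used here. A SMART-Seq kit made the cDNA, per the labels' protocols; such kits add no molecular identifiers and do not mark strand. Counts were filtered with filterByExpr (minimum count 10, minimum total 15), scaled by TMM and tested with edgeR 4.0.16 (R 4.3.3; limma 3.58.1 and DESeq2 1.42.0 as alternatives), with BFP status alone in the model, 2 residual degrees of freedom, two-sided p-values and an adjusted p threshold of 0.05. The SE is the log2 fold change divided by the root of F. Floors are 3 counts, 0.237 to 0.257 CPM, and cover counting error only. Replicates differed beyond counting noise (chi-square per degree of freedom 14.9 in BFP-positive and 18.9 in BFP-negative cells). Gene positions are from RefSeq (GRCm38.p6) and exon overlaps and coding sequences from GENCODE M21. The members and the gene lists were chosen with earlier results of these data known. Named genes are the members, up to 4 called genes of each list by p (the one with the smallest p where none was called), Ly6e, Cd8b1, the genes of the sort and the 2 most alike genes of each called member with a mean of at least 20 CPM, predicted genes left out; other genes were named after their values were seen. Some genes of the lists are counted in them but not reported by name here.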

Additional observations from a re-analysis of the deposited data

How the results depend on the processing

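Over 13 alternatives with a test, the 9 members gave 117 values, of which 103 kept direction and side of the threshold, 3 lost the call (all Cd8a with a library left out), 2 gained it and 9 turned sign. Ly6c2 and Cd5 passed under all 13. With the replicate number as a block, Ly6a passed in edgeR and in limma-voom (adjusted p = 0.0314 and 0.00289), giving 2 members higher in each; genes called lower were 760 in edgeR with the block, against 411 without it, and 826 in limma-voom with the block, against 453 without it. The titles share a code within each number but its meaning is not given, so the main test did not use the pairing. Same-numbered deviations correlated at 0.0594 across genes. That value is taken over all genes tested and cannot decide whether the libraries are paired or whether single genes follow the replicate number. Leaving out 1 library gave 1 to 2 members lower, 559 (without BFP-positive replicate 2) to 921 genes higher and 245 (without BFP-positive replicate 1) to 408 lower, against 890 and 411 with all libraries. Cx3cr1 turned to -0.045 with library totals, to -0.0052 in limma-voom, to -0.0059 with the replicate block in edgeR, and to -0.074 as a difference of deposited log2 RPKM; with 1 library left out it ran from -0.30 (without BFP-positive replicate 2) to 0.29, with -0.02 without BFP-negative replicate 1. With 1 library left out, Axl ran from -0.093 to 0.055 (0.054 without BFP-positive replicate 1) and Cd4 from -1.11 to 0.30 (0.052 without BFP-positive replicate 1). The causes were not tested. A floor of 3 counts limits folds of genes at 0 in a group.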

Other observations

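Ly6k, another gene of the Ly6 cluster, differed between the replicate numbers and not between the groups. It had 21 and 332 counts in BFP-positive replicates 1 and 2, and 7 and 342 counts in BFP-negative replicates 1 and 2. Its log2 fold change of BFP-positive over BFP-negative cells was 0.08 with SE 1.22. Ly6k was singled out after its values were seen. Among the members, Ly6a, Ly6c2, Cx3cr1, Lag3 and Axl had their higher value of each group in replicate 2, by far smaller steps than Ly6k. The share of all genes tested with this order was not computed, so it does not show an effect of the replicate number on the members. For Ly6a the values in replicate 2 were 10436 CPM in BFP-positive and 9187 CPM in BFP-negative cells, against 9269 and 8226 CPM in replicate 1. Cd4 and Cd8a had their higher value in replicate 2 of the BFP-positive cells and in replicate 1 of the BFP-negative cells. Ly6c1 and Cd5 had theirs in BFP-positive replicate 1 and BFP-negative replicate 2.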
